A study of Mus musculus with 24 samples.

Results

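m6A MeRIP-seq (methylated RNA immunoprecipitation followed by sequencing) of WT26 mouse embryonic stem (ES) cells was examined as the 2 IP libraries against the 2 input libraries of the same cells, which are 4 of the 24 libraries of the series. The rows kept were those of annotated genes, 21524 of the 47937 genes in the count table after a filter on low counts, and the rows of repeat families were set aside after the fit. WT26 cells are wild type (129/Sv × C57Bl6 background), grown in serum replacement and LIF on gelatin, and served as the parental control of the Mettl14 KO line. Nuclear RNA was treated with DNase, sonicated and split into input and IP, and the material of several reactions with an anti-m6A antibody was combined into each biological replicate. By the study's methods the IP material was then digested with proteinase K and purified on a column, steps not given for input. Stranded libraries were made after ribosomal RNA depletion without a further fragmentation step. The other MeRIP-seq groups, with 2 input and 2 IP libraries each, were RBC (Rosa26 BirA-V5, Cre-ERT2), the parental line of the Mettl3 KO cells, Mettl3 KO (Rosa26 BirA-V5, Cre-ERT2, Mettl3 KO) and Mettl14 KO, and each KO line is 1 clone. The same culture medium is given for all lines.

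m6A is a methyl mark on adenosine that is deposited on nascent RNA by a complex built on the METTL3 and METTL14 heterodimer, with WTAP, VIRMA, ZC3H13 and RBM15 among its regulatory subunits. The mark is preferentially placed in the sequence context that holds GGAC, mostly in long exons and near stop codons of mRNA, and is read by YTH domain proteins, which act on RNA decay, translation and splicing. In ES cells m6A is known for shortening the life of mRNAs for pluripotency factors. A gene's IP over input ratio sums all reads assigned to its exons. It gives neither the position of a methylated adenosine nor the share of molecules that carry it.

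The WT26 libraries held 22366463 and 13181389 counts in input and 22971529 and 16239506 in IP, of which 60.5% to 67.2% fell on genes. ES cell markers were present in input, all 10 above 10 normalized counts, with summed levels of 21196 and 20152.7. Of 8 fibroblast markers 2 were above 10 (sums 103.7 and 90.8), of 6 trophoblast markers 1 (50.3 and 43.9), and of 6 primitive endoderm and 6 neural markers 5 and 6 (3267.1 and 3517.3, and 640.4 and 661.7). In IP these sums were 34298.1 and 48533.6 for ES, 135.3 and 94.5 for fibroblast, 92.7 and 59.4 for trophoblast, 4564.8 and 3187.2 for primitive endoderm, and 1468.1 and 2141 for neural markers.

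Sequences of 5 genes chosen as examples from those named below are shown first, with each GGAC in capitals. For mRNAs the stretch is the 120 bases of coding exon with the most GGAC (the first where several tie), and for Rmrp it is the whole RNA. They are read 5′ to 3′ from GENCODE vM21 on GRCm38. Sox2 (chr3:34651118-34651237, plus strand) and Klf4 (chr4:55530111-55530230, minus strand) encode pluripotency factors, Zfp52 (chr17:21557135-21557254, plus strand) a zinc finger protein, Hist1h4h (chr13:23531253-23531372, plus strand) a histone H4, and Rmrp (chr4:43492788-43493058, minus strand) is the RNA of the RNase MRP ribonucleoprotein. The first 3 were enriched in IP and the last 2 depleted.
Sox2: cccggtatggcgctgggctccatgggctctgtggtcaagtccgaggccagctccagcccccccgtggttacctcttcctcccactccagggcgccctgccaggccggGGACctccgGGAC
Klf4: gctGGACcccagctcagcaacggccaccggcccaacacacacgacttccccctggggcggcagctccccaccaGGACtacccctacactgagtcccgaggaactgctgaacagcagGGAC
Zfp52: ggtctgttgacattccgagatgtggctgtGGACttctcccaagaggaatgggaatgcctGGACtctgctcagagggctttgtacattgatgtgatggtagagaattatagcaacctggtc
Hist1h4h: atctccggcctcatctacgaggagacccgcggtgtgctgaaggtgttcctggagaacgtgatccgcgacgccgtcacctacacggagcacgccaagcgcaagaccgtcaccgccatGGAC
Rmrp: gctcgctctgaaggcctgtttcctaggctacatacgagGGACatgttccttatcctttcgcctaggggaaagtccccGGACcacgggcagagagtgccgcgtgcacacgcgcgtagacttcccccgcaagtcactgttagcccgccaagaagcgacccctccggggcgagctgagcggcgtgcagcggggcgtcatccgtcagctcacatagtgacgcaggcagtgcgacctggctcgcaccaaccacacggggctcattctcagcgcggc

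The stretch of Klf4 held 3 GGAC, and 31.7% of 14467 protein-coding genes with a coding exon of that length had a stretch with at least as many. The Sox2 and Zfp52 stretches held 2, and 69.8% of these genes had a stretch with at least 2. That of Hist1h4h held 1, and 94.1% had a stretch with at least 1. Of 14793 protein-coding transcripts, 99.2% held at least 1 GGAC on the transcript strand, so that its presence does not separate enriched from depleted genes. Rmrp, the most depleted of these RNAs, held 2 in 271 bases.

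IP and input differed at many genes in WT26. A gene was called enriched or depleted where the fitted IP over input ratio was more than 2-fold in either direction, a log2 ratio beyond 1, with an adjusted p of at most 0.05. By this rule 3254 genes were enriched, 15.1% of those tested, and 2425 were depleted, 11.3%. Both IP libraries lay above both input libraries for 3253 of the enriched genes and below them for 2421 of the depleted genes. Of all tested genes 37.7% and 33% separated in these directions. The calls were made from these same libraries, so separation of called genes follows largely from the rule and gives them no further support. The median log2 ratio over all tested genes was 0.08.

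The size of these counts rested on IP replicate 2. Without it, 22 genes were called enriched and 89 depleted, all of which had been called with it, and without input replicate 2 the counts were 60 and 337. Without input replicate 1 they were 789 and 1067, and without IP replicate 1 they were 4294 and 3366. Among called genes the median log2 ratio had the same direction in both pairs of libraries, which follows largely from the rule, but differed in size. Among enriched genes it was 1.12 in pair 1 and 1.93 in pair 2, with the larger value in pair 2 for 3050 of 3254 genes. Among depleted genes it was -1.51 and -2.40.

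The counts also rested on the scaling. One gene annotated as a lncRNA, Gm26917, took 12.4% and 12.8% of all counts in input and 1.08% and 0.423% in IP. Scaling to the total count raised the median log2 ratio of all genes by 0.43. With that scaling 5683 genes were enriched and 1278 depleted, so that 81.6% of calls were enriched in place of 57.3%. All values below are relative to the median-of-ratios scaling.

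Protein-coding genes and structured noncoding RNAs moved in opposite directions. Of 14799 protein-coding genes 2696 were enriched, 18.2%, and 830 depleted, 5.61%, with a median log2 ratio of 0.26. Their share of gene counts was 64.7% and 56.4% in input and 86.5% and 90.1% in IP. With Gm26917 left out of the total, the shares were 81.3% and 70.5% in input and 88% and 90.7% in IP. Small nucleolar and Cajal body RNAs (snoRNA and scaRNA), which guide modification of ribosomal and spliceosomal RNA, had the reverse pattern: 257 of 432 were depleted and 3 enriched, with a median of -1.94. Their share fell from 0.482% and 0.344% in input to 0.1% and 0.0616% in IP.

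Other short or structured RNAs were depleted more often than the 11.3% of all genes. For snRNAs, the RNAs of the spliceosome and their copies, 58 of 191 were depleted and 1 enriched (2 with the block for paired libraries), and for miRNA loci 156 of 451 were depleted and 29 enriched. All 5 tested ribozyme genes were depleted, as were 43 of 128 genes of the misc_RNA class and 9 of 22 rRNA genes. Median log2 ratios were -1.82 for snRNAs, -1.41 for miRNA loci, -1.51 for misc_RNA, -5.53 for ribozymes and -2.40 for rRNA genes. Apart from the ribozymes, the medians were smaller in size among genes with at least 10 counts in each WT26 library. They were -0.96 for 18 snRNAs (3 enriched, 3 depleted) and -0.38 for 107 miRNA loci (13 and 25). For 33 misc_RNA genes the median was -0.33 (7 and 7), and for 3 rRNA genes -0.48 (none called). This minimum also applies to the IP libraries and so removes genes because they are depleted. It cannot tell whether the depletion rested on genes with few counts. The snoRNA median was -1.58 over 153 genes with that minimum. With no filter the medians were -0.75 for snRNAs, -0.84 for miRNA loci, -0.58 for misc_RNA, -0.54 for rRNA genes and -2.41 for 13 ribozyme genes. Many members of these classes are near-identical copies among which the counting splits reads, and many lie inside introns of other genes, so that their calls are not independent. Their annotated length was short, with class medians of 125 bases for snoRNAs, 107 for snRNAs and 85 for miRNA loci against 3323 for protein-coding genes. The part of transcript length in the depletion was not tested. Only IP had the added digestion and column step, so their part cannot be told apart from that of the antibody.

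Long noncoding RNAs (lncRNAs) fell between these groups, with 247 of 2586 enriched (9.55%) and 415 depleted (16%) and a median of -0.21, which turned to 0.24 when libraries were scaled to the total count and to 0 when the filter on low counts was dropped. By annotated biotype, 61 of 160 sense intronic transcripts were depleted and 4 enriched, 233 of 1226 antisense transcripts were depleted and 109 enriched, and lincRNAs were balanced with 75 and 78 of 736. Among 62 lncRNAs from bidirectional promoters 14 were enriched and 1 was depleted. Loci annotated as TEC, single transcript models that still await experimental evidence, were depleted in 369 of 1046 cases and enriched in 30, with a median of -1.37. Of 1717 pseudogenes 217 were enriched and 268 depleted. With scaling to the total count the numbers were 348 and 183 of 1733. With at least 10 counts in each WT26 library they were 130 and 49 of 597, but that minimum removes genes with few IP counts.

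**Figure D1:**
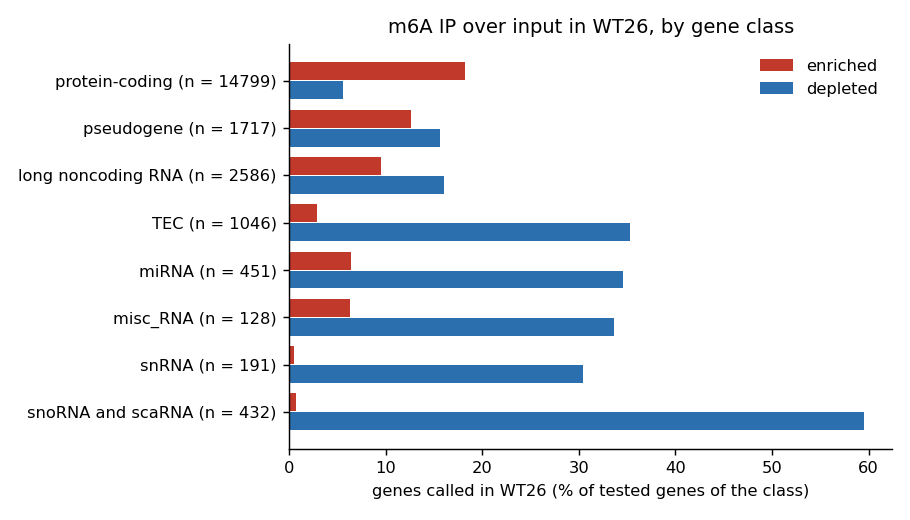
Share of tested genes in each class that were called enriched (red) or depleted (blue) in WT26 IP over input, in percent, for classes with at least 100 tested genes (n in brackets). The protein-coding class has the largest enriched share, 18.2%, and snoRNAs and scaRNAs the largest depleted share, 59.5%.

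Abundant noncoding RNAs included some strongly depleted RNAs and others near their input level. Rmrp had 71773 and 67445.6 normalized counts in input and 494 and 326.5 in IP, a log2 ratio of -7.40 (SE 0.63, adjusted p = 8.677e-05). The IP libraries lay far below both inputs, and the call held when any 1 of the 4 libraries was left out. Rn7s2, a copy of the RNA of the signal recognition particle, had 23914.7 and 28952.6 in input and 154 and 251 in IP (-7.03, SE 0.52, adjusted p = 4.773e-05), although reads are shared with Rn7s1 and other copies.

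Rpph1, the catalytic RNA of RNase P, had 19314.2 and 50776.9 in input and 814.3 and 1097.5 in IP, a log2 ratio of -5.20. Rn7sk, which holds the elongation factor P-TEFb inactive, had 33110.1 and 53014.7 against 2792.2 and 1741.6, a ratio of -4.25. Terc, the template RNA of telomerase, had 593.2 and 1300.6 against 72.9 and 23.4, a ratio of -4.26. All 3 lay below both inputs in both IP libraries and passed the test (adjusted p = 0.000476, 0.00514 and 0.00218).

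The snoRNA Snora73a, with the most counts of its class, had 3760.5 and 3315.9 in input and 21.6 and 11.7 in IP (-7.68, SE 0.86, adjusted p = 0.000506). Genes that overlap such RNAs on the other strand had similar ratios. Ccdc107, a protein-coding gene whose exons overlap Rmrp on the opposite strand, had 70879.7 and 67277.6 in input and 614.8 and 426.4 in IP, and the lncRNA Gm17300, opposite Snora73a, had 6043.1 and 4863.3 against 201.2 and 133.1. The strand setting of the counting is not given in the sources used here, and reads of such pairs cannot be told apart.

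Gm26917 had 2178221.5 and 2561854.6 in input and 144982.3 and 61749.2 in IP, a log2 ratio of -4.52 (adjusted p = 0.00326). The largest rRNA gene, CT010467.1, had 243741.5 and 1134422.1 in input and 57977.4 and 141743.4 in IP (-2.79, SE 1.16, adjusted p = 0.0753) and was not called. Its level in input replicate 2 was far above that in replicate 1, and ribosomal RNA had been removed from the libraries.

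Nuclear lncRNAs were mostly near their input level. Malat1, a speckle RNA, had 67515.9 and 71750.2 in input and 69532.4 and 92877.9 in IP (0.22, adjusted p = 0.574), and Neat1, the scaffold of paraspeckles, 3673.3 and 3441.6 against 5450.9 and 3448.1 (0.32, adjusted p = 0.349). Xist, Kcnq1ot1, Meg3, Rian, Firre and Airn were not called either, with log2 ratios from -0.60 to 0.85. None of these lncRNAs passed the test, although both IP libraries lay below both inputs for Xist, Kcnq1ot1, Meg3, Rian and Firre.

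4 of 34 tested members of the abundant noncoding list were enriched. Tug1 rose from 2220.5 and 2415 to 4451.7 and 10379.2 (1.68, adjusted p = 0.0132) and Lncenc1, an ES cell transcript, from 3668.6 and 4050.2 to 5736.7 and 13541.2 (1.32, adjusted p = 0.0159). Tsix, the antisense transcript of Xist, rose from 810.1 and 746.5 to 1527.1 and 2207.5 (1.26, adjusted p = 0.00754), and 2900097C17Rik from 186.2 and 202.9 to 490 and 1360.1 (2.25, adjusted p = 0.0116). With the strand setting not given, reads of Tsix and Xist cannot be told apart where they overlap. Of the list 12 were depleted, among them Mir17hg, the host of a miRNA cluster, with 837.6 and 885.7 in input and 308 and 181.7 in IP.

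snoRNA host genes, which carry snoRNAs in their introns, had 6 of 15 tested members depleted and none enriched, with a median of -0.81. By edgeR the depleted members included Snhg12 (log2 ratio -1.50), Snhg6 (-1.22), Snhg8 (-1.35) and Snhg9 (-3.09). Gas5 (-0.93, adjusted p = 0.109) and Snhg5 (-0.63, adjusted p = 0.0622) did not pass. The depleted count of the list was 2 when libraries were scaled to the total count. Among other lncRNAs with the largest ratios, Gm16211 had 343.4 and 369.4 in input and 1040.6 and 2875.9 in IP, a log2 ratio of 2.46. Gm11175, opposite Jund, Gm26850, opposite Slc33a1, and Gm26954, opposite Pclo, had 2.65, 2.34 and 2.61, and their reads cannot be told apart from those of the gene opposite.

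**Figure D2:**
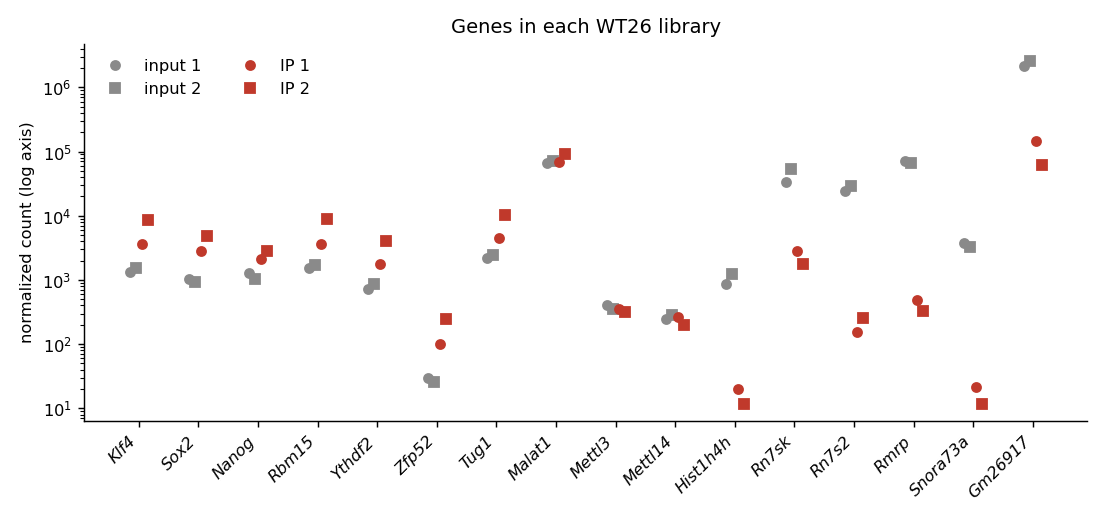
Normalized counts (log axis) of 16 genes in the 4 WT26 libraries, input in grey and IP in red, with replicate 1 as circles and replicate 2 as squares. Klf4 to Tug1 lie higher in both IP libraries, Malat1, Mettl3 and Mettl14 overlap or nearly overlap, and Hist1h4h to Gm26917 lie lower in both IP libraries.

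Among protein-coding genes the number of exons went with the ratio more than other features of the transcript did. Of genes whose longest transcript had 2 exons 37.5% were enriched and 4.2% depleted, with a median log2 ratio of 1.01. Of those with 3 to 5 exons 32.2% were enriched, of those with 6 to 10 exons 15%, of those with 11 to 20 exons 6.98%, and of those with more than 20 exons 3.17%, and in the last group 12.2% were depleted and the median was -0.27. Against the 18.2% of all protein-coding genes, genes with few exons were enriched more often and genes with many exons less often. Single-exon genes, a group that holds the depleted H4 histones, had 31.9% enriched. With the longest coding transcript, an alternative chosen after seeing the data, their share was 45.7%.

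The order of the exon groups was present in each pair of libraries. In pair 1 the group medians ran from 0.72 at 2 exons to -0.21 above 20 exons, and in pair 2 from 1.24 to -0.34. Across protein-coding genes Spearman's rho of the log2 ratio with exon number was -0.37, with GC content 0.19, with GGAC per kilobase 0.15, with the length of the longest exon 0.10 and with transcript length -0.09 (14799 genes, or 14793 for GC and GGAC, which share the same 4 libraries and are not independent replicates).

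The length of the longest exon went with the call within groups of exon number. Of genes with up to 5 exons in the longest coding transcript, 24.6% were enriched where the longest exon was under 1000 bases, 39.2% at 1000 to 2000 bases and 47.3% above. Of genes with more than 10 exons the shares were 1.92%, 6.44% and 8.16%. These shares are descriptive and no test was made of the difference between bins.

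**Figure D3:**
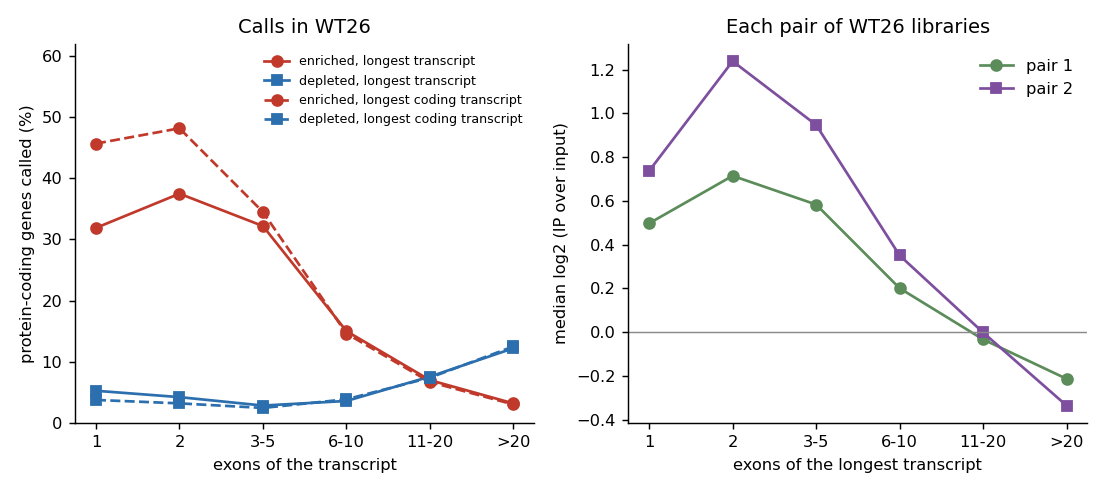
Left: percent of protein-coding genes called enriched (red) or depleted (blue) in WT26 by number of exons, with the longest transcript (solid) or the longest coding transcript (dashed) standing for each gene. Right: median log2 IP over input in pair 1 (green) and pair 2 (purple), which fall from 0.72 and 1.24 at 2 exons to -0.21 and -0.34 above 20 exons.

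The counts in the lists below rest on the second pair of libraries in the same way as the totals. Without IP replicate 2, or without input replicate 2, no member of the Zfp, protocadherin, pluripotency or immediate early lists was called, while the medians stayed positive. The Zfp median was 0.99 without IP replicate 2 and 1.35 without input replicate 2, against 1.42 in the whole fit.

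Zinc finger genes named Zfp, most of which encode DNA-binding repressors, formed the largest enriched family. Of 371 tested members 260 were enriched and 5 depleted, with a median of 1.42 that stayed above 0 under each scaling. Zfp52 had 29.9 and 25.7 in input and 101.5 and 247.4 in IP (2.62, SE 0.49, adjusted p = 0.00607), and Zfp955a 143.8 and 166.6 against 376.8 and 1296.3 (2.43, adjusted p = 0.00845). Zfp202, Zfp207, Zfp280c and Zfp326 were depleted, with log2 ratios of -1.21, -1.02, -1.61 and -1.15. Many Zfp genes are paralogs with similar sequence, and counting with multi-mapped reads can share reads among them.

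The share of enriched Zfp genes was above that of other genes with as many exons. Among genes with 3 to 5 exons in the longest coding transcript 78% of 227 Zfp genes were enriched against 31.2% of 2989 other protein-coding genes, and among those with 6 to 10 exons 63.2% of 95 against 13.5% of 4164. In genes with 11 or more exons the shares were 15.4% of 26 and 5.43% of 5949. The length of the longest exon was not matched in these comparisons. Its median was 2741 bases for Zfp genes and 1462 for the others at 3 to 5 exons, and 2709 and 1374 at 6 to 10. Its part in the difference was not tested. Protocadherins, cell adhesion receptors with a long first exon, had 23 of 31 tested members enriched and none depleted, with a median of 1.62. Pcdhga2 rose from 90.4 and 78.7 to 306.2 and 552.3 (2.33, adjusted p = 0.00823). The 3′ exons of a protocadherin cluster are common to its members, so these calls are not independent.

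Genes for pluripotency factors were enriched more often than the 18.2% of protein-coding genes, 16 of 30, with a median of 1.13. Klf4, a reprogramming factor, had 1313.8 and 1544.4 in input and 3649.1 and 8437.1 in IP, a log2 ratio of 2.08 (SE 0.53, adjusted p = 0.0124). Sox2 had 1030.1 and 925.1 against 2794 and 4875.7 (1.97, SE 0.42, adjusted p = 0.0077), and Nanog 1286.2 and 1031.1 against 2134.8 and 2848.9 (1.10, SE 0.32, adjusted p = 0.0207). For all 3 the IP libraries lay above both inputs, and IP replicate 2 was the higher. Without it their ratios were 1.36, 1.52 and 0.89 and none passed by edgeR (adjusted p = 0.145, 0.086 and 0.159), and none passed without input replicate 2. Klf4 and Nanog also failed without input replicate 1.

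Klf2, Gbx2 and Foxd3, factors of the naive and early epiblast states, had log2 ratios of 2.33, 2.32 and 2.23 and were enriched. Pou5f1, the gene of OCT4, had 1353.8 and 1187.1 in input and 1632.6 and 1204.5 in IP (0.16, adjusted p = 0.592) and was not called. Stat3, the effector of LIF signalling, fell from 1294.9 and 1492.9 to 776.4 and 449.8 (-1.18, adjusted p = 0.0123), and Tfcp2l1 from 3923.2 and 4083.5 to 2022.9 and 1169.4 (-1.33, adjusted p = 0.00907). Those were the only depleted members of the list, and neither was called when libraries were scaled to the total count.

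Immediate early genes, which respond to growth factors within minutes and have few introns, had 15 of 29 enriched and none depleted. Ier2 rose from 666.3 and 579.9 to 2330.2 and 4140.7 (2.38, adjusted p = 0.00814), and Myc from 172.9 and 130.2 to 427 and 765.5 (1.97, adjusted p = 0.024). Junb and Jund had 2.27 and 2.28, and each overlaps a gene on the other strand, Prdx2 and Gm11175. Of 47 developmental transcription factors 18 were enriched and none depleted, with a median of 1.30, among them Sox1 (1.78), Sox21 (2.04), Hes6 (1.87) and Irx2 (1.88).

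Members of 3 lists of signalling pathways that act on ES cells were called more often enriched than depleted, and most members were not called. Protein-coding genes in general had that balance, with 18.2% enriched and 5.61% depleted. The enriched shares were 32.4% (TGF-beta, BMP and Nodal), 32.6% (WNT) and 25.6% (LIF and FGF), and the last list had 7.69% depleted. Of the TGF-beta, BMP and Nodal list 12 of 37 were enriched and none depleted. Nodal, a ligand, rose from 507.6 and 398.2 to 1817.5 and 2803.1 (2.35, SE 0.38, adjusted p = 0.00441), and Bmp4, another ligand, from 440.8 and 372.5 to 1276.2 and 2677.1 (2.28, adjusted p = 0.0114). Bambi, a decoy receptor, had a log2 ratio of 2.25 and Inhbb, an activin subunit, 2.10.

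Of the WNT list 14 of 43 were enriched and 1 depleted. The receptor genes Fzd1, Fzd8, Fzd9 and Fzd10 had log2 ratios of 2.56, 2.58, 2.20 and 2.14, and Porcn, which acylates WNT ligands, had -1.40. Of the LIF and FGF list 10 of 39 were enriched and 3 depleted. The enriched members included the feedback inhibitors Spry1 (2.10), Spry2 (2.13), Dusp6 (1.66) and Socs3 (1.796), and the depleted members included the kinase gene Braf (-1.08) and Stat3.

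The genes of the m6A machinery itself had 8 of 26 members enriched (30.8%, against 18.2% of all protein-coding genes) and 2 depleted, with a median of 0.11. Among writer subunits, Rbm15 rose from 1528.3 and 1680.7 to 3681.2 and 8824.8 (1.96, adjusted p = 0.0115), and Rbm15b, Zc3h13, Wtap and Virma had 1.90, 1.28, 1.18 and 1.04. Virma fell just under the fold limit with the block for paired libraries (0.9994) and with scaling on gene rows alone (0.96). Mettl3 had 411.7 and 357.3 in input and 346.5 and 313.9 in IP (-0.22, adjusted p = 0.46), and Mettl14 had 245.9 and 281.6 against 261.3 and 195.2 (-0.20, adjusted p = 0.58). Neither was called, and both ratios turned positive with scaling to the total count.

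Among readers, the cytoplasmic proteins encoded by Ythdf1, Ythdf2 and Ythdf3 had enriched transcripts, with log2 ratios of 1.71, 1.86 and 1.45. Ythdf2 rose from 735.4 and 875.2 to 1796 and 4049.9 (adjusted p = 0.0139). The nuclear reader Ythdc1 (0.42, adjusted p = 0.197) was not called, and the helicase Ythdc2 fell from 506.8 and 455.7 to 210 and 91.8 (-1.66, adjusted p = 0.0119). Igf2bp1 was depleted (-1.21), Igf2bp2 was not called (-0.59, adjusted p = 0.0741), and Igf2bp3 passed the test but not the fold limit (-0.79, adjusted p = 0.0283). The erasers Fto (0.00, adjusted p = 0.995) and Alkbh5 (0.43, adjusted p = 0.18) were not called, nor were Cbll1, Hnrnpc, Hnrnpa2b1, Fmr1, Prrc2a, Mettl5 and Pcif1, with log2 ratios from -1.10 to 0.65. Mettl16 (-0.73) and Zcchc4 (-0.56), other methyltransferases, passed the test but not the fold limit.

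Genes of the mitochondrial ribosome were enriched, 32 of 78 with none depleted and a median of 0.85. Mrpl43 rose from 124.9 and 104.5 to 399.6 and 614.4 (2.13, SE 0.38, adjusted p = 0.00536), and Mrpl41, Mrpl57 and Mrps7 had 2.20, 1.90 and 1.88. Of the nuclear genes for oxidative phosphorylation 19 of 88 were enriched (21.6%, near the 18.2% of all protein-coding genes) and 2 depleted. Ndufa2, a complex I subunit, rose from 157.1 and 199.9 to 652.1 and 775.4 (2.00), while the multi-exon genes Ndufs1 and Uqcrc2 had -1.01 and -1.11.

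Genes of the cytoplasmic ribosome were called less, 7 of 87 enriched and none depleted. Their median was 0.58 in pair 1 and -0.29 in pair 2, so the pairs differed in sign. The enriched members included Rpl36 (1.31), Rpl36al (1.77) and Rpl10l (1.58), and also Rps6kl1 (1.28), which encodes a kinase and was matched by its name. The 29 tested transcripts of the mitochondrial genome had 1 enriched and 1 depleted (2 with the block for paired libraries), with medians of 0.03 in pair 1 and -1.47 in pair 2.

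Several lists for general cell functions had few enriched members against the 18.2% of all protein-coding genes. Splicing factors had 3 of 57 enriched and 4 depleted, cyclins and cell cycle kinases 0 of 41 and 1, DNA replication 2 of 43 and 4, integrins, laminins and collagens 0 of 31 and 5, and kinesins 1 of 36 and 0 (2 of 36 enriched with the block for paired libraries). Medians of the first 4 were -0.37, -0.15, -0.06 and -0.29, and each turned positive, from 0.06 to 0.35, with scaling to the total count.

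Prpf8, the core of the spliceosome, fell from 11183.4 and 11811.5 to 5543.6 and 3117.9 (-1.41, adjusted p = 0.0124). By contrast Son, a speckle protein gene with a very long exon, rose from 8298.9 and 7865.8 to 15461.9 and 26544.5 (1.38, adjusted p = 0.0157). Lama5, a laminin chain, fell from 6229.3 and 5864.1 to 2168.7 and 1120 (-1.88, adjusted p = 0.00841). Snrpd2, an Sm protein, rose from 465.9 and 493.6 to 1591.2 and 1821.6 (1.83, adjusted p = 0.00358).

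Lists of chromatin genes had enriched shares below the 18.2% of all protein-coding genes, and most members were not called. The enriched shares were 11.4% (polycomb and trithorax), 2.94% (H3K9 methylation and heterochromatin) and 9.09% (remodellers). The depleted shares were 2.27%, 8.82% and 9.09%, against 5.61% of all protein-coding genes. Of the polycomb and trithorax list 5 of 44 were enriched and 1 depleted (3 with the block for paired libraries). Epop had 375.6 and 446.7 in input and 1644.9 and 2472.9 in IP (2.33, adjusted p = 0.00613), and Rbbp4 had a log2 ratio of -1.52. Of the list of H3K9 methylation and heterochromatin genes 1 of 34 was enriched, Daxx (1.60), and 3 were depleted. Cbx5, the gene of HP1 alpha, fell from 4579.3 and 5179.7 to 2184.4 and 1159.5 (-1.54, adjusted p = 0.00962), Trim28, the corepressor of KRAB zinc finger proteins, from 6158.6 and 6671.1 to 3208.1 and 1848.6 (-1.34, adjusted p = 0.00808), and the DNA methyltransferase gene Dnmt3b had -1.01. Of the remodellers 4 of 44 were enriched, Arid1a, Bptf, Kat6a and Kat6b, and 4 depleted, Actl6a, Kat7, Mta1 and Smarcd1. Exons of Actl6a overlap Mrpl47 on the opposite strand.

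DNA repair genes had 9 of 54 enriched (16.7%) and 6 depleted, and the Mediator and RNA polymerase II list 12 of 68 (17.6%) and 7, both enriched shares near the 18.2% of all protein-coding genes. Msh6, a mismatch sensor with a long exon, rose from 4567.5 and 4624.1 to 10797.9 and 18973.7 (1.70, adjusted p = 0.0114), and Fancf, a gene of the Fanconi anaemia pathway, had 2.07. Fancd2 and Fancg of the same pathway had -1.58 and -1.36, and Prkdc, the kinase of end joining, -1.44. In the second list the enriched members included Med11 (1.95), Med18 (1.97), Taf8 (1.70) and Polr2l (1.76), and the depleted members Med12 (-1.75), Med14 (-1.66), Med23 (-1.66) and Cdk8 (-1.61).

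Further lists were near the background of protein-coding genes or below it. Solute carriers had 29 of 253 enriched and 18 depleted, Rnf and Trim ubiquitin ligase genes 17 of 122 and 6, translation factors 5 of 70 and 5, proteasome genes 3 of 47 and 2 (1 depleted with the block for paired libraries), chaperones 4 of 30 and 1, tRNA synthetases 2 of 37 and 1 (3 depleted with the block), and glycolysis genes 1 of 19 and 0. Actin, tubulin and related genes had 6 of 30 enriched and none depleted, with Tubb2a rising from 149.3 and 178.7 to 495.2 and 968.8 (2.16, adjusted p = 0.00606). Eif4a1, an RNA helicase of translation initiation, fell from 7620.9 and 8753 to 2796.9 and 2585.4 (-1.60, adjusted p = 0.00351), and its introns host snoRNAs.

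**Figure D4:**
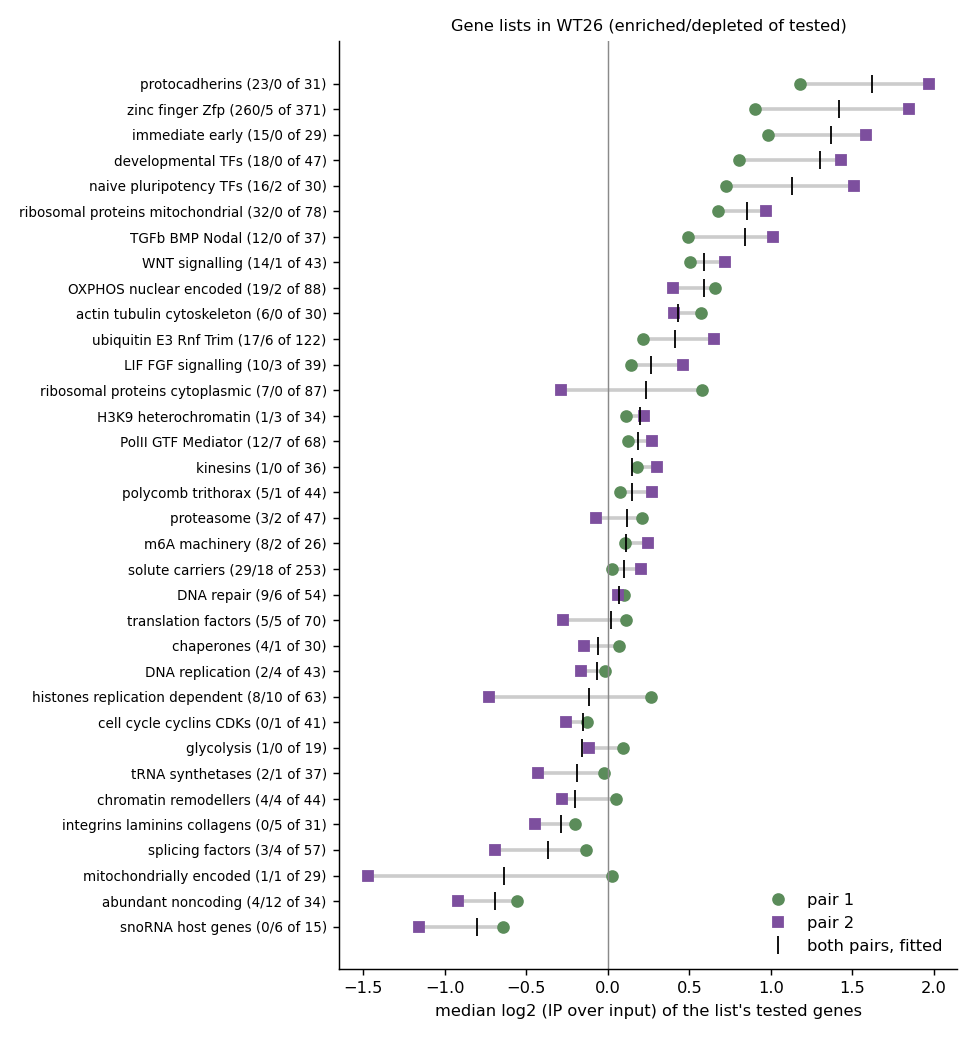
Median log2 IP over input of the tested genes of 34 lists in WT26, in pair 1 (green circles), pair 2 (purple squares) and the fit of all libraries (black ticks), with the number enriched/depleted of tested beside each name. In the fit of all libraries protocadherins and Zfp genes lie highest (1.62 and 1.42) and snoRNA host genes lowest (-0.81); the order differs between pairs.

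Replication-dependent histone genes, single-exon genes whose mRNAs end in a stem loop in place of a poly(A) tail, differed by type. Of 12 H4 genes 7 were depleted and none enriched, with a median of -1.39, while 3 of 6 H1 genes were enriched and none depleted, with a median of 1.31. Hist1h4h, the most depleted, had 862 and 1229.5 in input and 19.8 and 11.7 in IP (-6.005, SE 0.62, adjusted p = 0.000296). Hist1h4n, Hist1h4c and Hist4h4 had -4.40, -4.15 and -3.80, and Hist1h3e, an H3 gene, had -3.62.

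Among linker histone genes, Hist1h1c rose from 888.7 and 849.4 to 2781.1 and 3388.7 (1.83, adjusted p = 0.00824), and Hist1h1b (1.42) and Hist1h1d were enriched as well. H2A genes had 3 of 17 enriched and none depleted, H2B genes 2 of 16 and 1, and H3 genes none of 12 and 2. For all 63 histone genes the median was 0.26 in pair 1 and -0.73 in pair 2, and the block for paired libraries left 5 enriched in place of 8. Core histone genes are near-identical within a type, and reads can be split among them.

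By size alone, the most enriched protein-coding genes with a mean of at least 100 counts were B430305J03Rik (2.77), Tbcc (2.66), Nxt1 (2.66), Zc2hc1c (2.65), Pcdhga5 (2.63), Rpp25l (2.63), Zfp52 and Tagap (2.605). Tbcc, a tubulin folding cofactor whose gene has 1 exon, rose from 55 and 42.4 to 273.6 and 350.8 (SE 0.45, adjusted p = 0.00508), and Nxt1, an mRNA export cofactor, from 63.6 and 63.6 to 235.1 and 570.3 (adjusted p = 0.00565). B430305J03Rik and Tagap overlap genes on the other strand. The most depleted, besides Ccdc107 and the histone genes, were B3galt2, opposite Cdc73, with 569.7 and 593.5 in input and 140.6 and 36 in IP (-2.69), and Dck, a deoxynucleoside kinase, with 194.9 and 243.8 against 48.4 and 21.6 (-2.62, adjusted p = 0.00687).

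The same pattern over input was measured in the other lines, whose libraries are not shared with WT26 but whose values come from the same fit and scaling. In RBC 3010 genes were enriched (14%) and 1995 depleted (9.27%), in libraries labelled Mettl14 KO 2683 (12.5%) and 1768 (8.21%), and in libraries labelled Mettl3 KO 574 (2.67%) and 394 (1.83%). Of the 3254 genes enriched in WT26, 2572 were shared with RBC (79% of the WT26 genes and 85.4% of those of RBC), 2352 with Mettl14 KO (72.3% and 87.7%) and 370 with Mettl3 KO (11.4% and 64.5%). Of the 2425 depleted genes the numbers were 1612 (66.5% and 80.8%), 1477 (60.9% and 83.5%) and 341 (14.1% and 86.5%).

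The median log2 ratio of the genes enriched in WT26 was 1.57, against 1.48 for RBC, 1.44 for Mettl14 KO and 0.91 for Mettl3 KO, and since WT26 chose these genes its own value is the largest in part by choice. Klf4 had 2.08 here, 2.04 with Mettl14 KO and 1.11 with Mettl3 KO, and Sox2 1.97, 2.33 and 1.89. Rmrp had -7.40, -7.01 and -5.13. The Zfp list had medians of 1.42 for WT26, 1.45 for RBC, 1.31 for Mettl14 KO and 0.83 for Mettl3 KO. Some groups were instead higher with Mettl3 KO than with WT26. H1 histone genes had medians of 2.12 and 1.31 (5 and 3 of 6 enriched). Nuclear genes for oxidative phosphorylation had 1.03 and 0.59 (39 and 19 of 88), and cytoplasmic ribosome genes 0.77 and 0.23 (19 and 7 of 87). In WT26 the medians of pair 1 and pair 2 were 1.44 and 0.70 for H1 genes and 0.66 and 0.40 for oxidative phosphorylation genes. For cytoplasmic ribosome genes they were 0.58 and -0.29. The ratios are relative to the scaling over all features, and no test of these group differences was made. On that scale the medians of these groups were not lower in Mettl3 KO than in WT26, and the cause was not tested.

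No gene differed between WT26 and another line in IP over input by edgeR's interaction test at an adjusted p of at most 0.05 (0% higher and 0% lower in WT26, for each of the 3 lines). At an unadjusted p under 0.05, 55 genes were higher and 72 lower in WT26 than in RBC, 64 and 56 against Mettl14 KO, and 601 and 327 against Mettl3 KO, of 21524 tested. With both directions together, each comparison had fewer than the share of 0.05 of tested genes that no difference would give. These counts thus show no excess, and the lack of calls carries little information. DESeq2 gave 34 and 47, 35 and 38, and 581 and 296 at that level, of 36725 genes with no filter, and 1 gene past its adjusted threshold, in the comparison with Mettl14 KO. These tests do not show that the lines act alike.

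That gene, named here after its values were seen, was Gm10801 (chr2:98662237-98664083, plus strand, GRCm38). It had 112.4 and 75.7 in WT26 input and 338.9 and 172.7 in WT26 IP, and 871.6 and 355.7 in input and 57 and 39.7 in IP of Mettl14 KO. The IP libraries lay above the inputs in WT26 and below them in Mettl14 KO, a log2 difference of 5.08 (SE 0.89) with an adjusted p of 1 by edgeR. DESeq2 gave an adjusted p of 8.62e-05, and the fit with the block for paired libraries 0.00668. The counting divided multi-mapped reads among copies, and whether reads of Gm10801 were shared with repeat sequences was not tested.

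The targeted genes did not check the labels of the KO lines at the level of whole-gene counts. Mettl14 had 261.9 and 229.4 in Mettl14 KO input against 245.9 and 281.6 in WT26 input, and Mettl3 had 553.1 and 473.7 in Mettl3 KO input against 537.4 and 537.7 in RBC input. The Mettl14 KO clone was made by a small frame-shifting deletion, which a count over the gene cannot show.

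**Figure D5:**
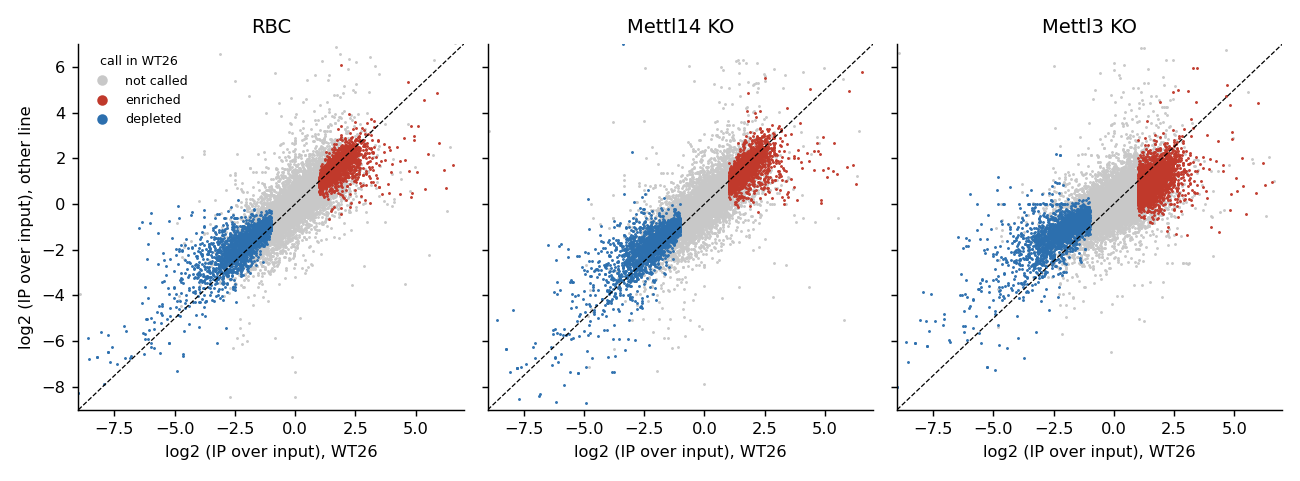
log2 IP over input of each tested gene in WT26 (x axis) against RBC, Mettl14 KO and Mettl3 KO (y axis), coloured by the call in WT26; the dashed line marks equal values, and 8, 10 and 6 genes lie outside the axes. Genes called in WT26 lie near the line in RBC and Mettl14 KO and nearer to 0 in Mettl3 KO, with medians of the enriched genes of 1.48, 1.44 and 0.91.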

How the data were processed

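Counts were deposited by the authors as 1 table of raw counts, with a row for each gene and each repeat subfamily and a column for each MeRIP-seq library. Per the submitters' processing notes and the study's methods, reads were trimmed with cutadapt 1.8.1, aligned to GRCm38 with STAR 2.6.0c keeping multi-mapped reads, and counted with TEtranscripts in multi mode, which divides reads among copies and therefore adds uncertainty to small RNAs, histone genes and other gene families. The strand setting and gene annotation release are not given in the sources used here. The table of the nuclear RNA-seq libraries was not used.

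The 16 MeRIP-seq libraries (8 groups of 2) were fitted together with edgeR 4.0.16 (quasi-likelihood test, R 4.3.3), using median-of-ratios size factors from DESeq2 1.42.0 and filterByExpr, and p-values were adjusted by Benjamini-Hochberg over all 22621 tested features (21524 genes, 1097 repeats). Normalized counts are counts divided by size factors, and per-pair ratios used a pseudocount of 0.5. A gene was called where its log2 ratio lay beyond 1 and its adjusted p did not exceed 0.05. The spread behind the p-values was estimated over all 8 groups of 2 samples, so it is not that of the WT26 samples alone. The p-values measure only the spread between samples within these groups. Replicates differed by more than sampling noise (chi-square per degree of freedom 68.7 for input and 81.9 for IP).

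Input and IP of 1 number came from the same RNA preparation by the study's methods, so the numbers pair the libraries; deviations of same-numbered WT26 libraries from their group means correlated at 0.24 over 12555 genes. The main fit had no block, and the fit with it is given where it changes a named call or moves a count by over 1.5 times.

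Gene classes, transcripts and sequences came from GENCODE vM21 (GRCm38), which held 47310 of the 47937 gene identifiers. Named genes were the 8 protein-coding and 5 lncRNA genes with the largest ratio in each direction (mean of at least 100 normalized counts, both IP libraries on 1 side of both inputs), Klf4, Sox2 and Nanog, up to 4 called genes per direction of each list (mean of at least 50), all tested members of the m6A and abundant noncoding lists, and the gene with most counts in each noncoding class. Pou5f1, Rn7s1 and the targeted genes in other lines were added for context, and the text describes part of those named; 1 of them is not reported here. The members, lists and rules were chosen with earlier results of these data known. Scripts were tested on simulated data. Alternatives covered the test, scaling, filter, libraries, block and call rule.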

Additional observations from a re-analysis of the deposited data

Results flagged for a closer look

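Gm10801 had opposite IP over input ratios in WT26 and Mettl14 KO, which passed a test of the difference between lines in the fit with the block for paired libraries. The log2 difference there was 4.99 (edgeR, adjusted p = 0.00668). In WT26 alone the gene's log2 ratio was 1.43 (SE 0.61, adjusted p = 0.0812) and it was not called. The pooled fit without the block gave a difference of 5.08 with an adjusted p of 1. No group has more than 2 libraries, so single libraries could not be tested as outliers. Sharing of multi-mapped reads between Gm10801 and repeat sequences was not tested either.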

How the results depend on the processing

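With 2 libraries a group, single libraries set the number of calls. Leaving out 1 of the 4 WT26 libraries in turn, which leaves an arm with 1 library that is assumed to vary like the other groups, gave 22 to 4294 enriched and 89 to 3366 depleted genes. By class the ranges for enriched genes were 10 to 3582 (protein-coding), 0 to 312 (lncRNA), 11 to 285 (pseudogene), 0 to 32 (miRNA) and 1 to 44 (TEC), and for depleted genes 10 to 1532 (protein-coding), 6 to 535 (lncRNA), 8 to 275 (pseudogene), 10 to 143 (miRNA), 41 to 239 (snoRNA), 2 to 62 (snRNA) and 6 to 499 (TEC). Scaling to the total count gave 5683 enriched and 1278 depleted genes, with 4745 and 214 protein-coding, 449 and 243 lncRNA and 49 and 237 TEC genes, 348 enriched pseudogenes and 46 enriched miRNA loci. A minimum of 10 counts in each WT26 library, IP included, tests fewer genes and drops those with few IP counts. It gave 1371 depleted genes, 13 enriched and 25 depleted miRNA loci, 130 and 49 pseudogenes, and 19 and 189 TEC loci. With it 229 lncRNA, 92 snoRNA and 3 snRNA genes were depleted. Without a filter 88 snRNA genes were depleted, and the adjusted p alone gave 1319 depleted protein-coding genes. DESeq2, TMM, scaling on gene rows alone and a fit of the 4 libraries alone kept the total counts within 1.5 times. The replicate block gave 3260 enriched and 2504 depleted genes, of which 3003 and 2236 were called without it, and it ended the calls of Prpf4, Psmd14 and Virma among the named genes. For the difference between WT26 and Mettl14 KO, DESeq2 and the replicate block each called 1 gene in place of 0. No named gene that was called changed sign under these alternatives. Uncalled named genes that did were, with scaling to the total count, Epb41l4aos (0.33), Fto (0.41), Gm28437 (0.09949), Hnrnpc (0.11), Kcnq1ot1 (0.31), Meg3 (0.20), Mettl14 (0.23), Mettl3 (0.19), Miat (0.25) and mt-Rnr2 (0.26). When 1 library was left out they were, with the lowest and highest log2 ratio over the 4 fits, Fto (-0.2187 to 0.1917), Neat1 (-0.04566 to 0.6226), Airn (-0.1175 to 1.463), Epb41l4aos (-0.3395 to 0.1245), Ftx (-0.2909 to 0.6245), Gm28437 (-0.9614 to 0.0873), Hnrnpc (-0.8607 to 0.05993), Miat (-0.4069 to 0.01853) and mt-Rnr2 (-1.607 to 0.5193). The causes were not tested.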
